A study of Mus musculus with 2 samples.

Results

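The nuclei described here are early postmitotic granule neurons of the newborn mouse cerebellum, chosen by their own RNA counts in single-nucleus RNA-seq. A nucleus was taken when it held at least 2 Cntn2 transcripts (unique molecular identifiers, UMIs), at least 1 UMI of Neurod1 or Pax6, no UMI of Mki67, Top2a or Kif11, at most 1 UMI of Eomes or Lmx1a together and at most 1 UMI of Gad1 or Gad2 together. It also had to show at least 1000 genes and a mitochondrial share of at most 5%. This rule found 147 nuclei in the control library and 175 in the cKO-labelled library, so 322 of 11803 deposited barcodes. They are called Cntn2-high nuclei below. Both libraries came from cerebella of mice at postnatal day 1, frozen after dissection, with 12 cerebella pooled per library. The control cerebella were from littermates without Cre that carried Tox3f/f or Tox3f/+, and the cKO cerebella were from Nestin-cre;Tox3f/f mice. In the floxed (f) allele loxP sites flank a segment of Tox3, and Nestin-Cre acts in neural precursors and all that descends from them, so deletion is not limited to granule cells. Each group is 1 library, and no value below has a replicate check or a p-value. Intervals in parentheses are exact 95% counting intervals, which leave out the spread between animals, dissections and libraries.

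Granule neurons are born in the external granular layer, a sheet of dividing precursors under the surface of the cerebellum that proliferates in response to Sonic hedgehog from Purkinje cells. After their last division they move to the inner part of that layer, switch on the adhesion molecule Cntn2 (TAG-1), extend parallel fibres and then migrate inward past the Purkinje cells. Cntn2 is shut off again as they mature, so it marks a short stage between the precursor and the migrating neuron. Pax6 and Neurod1 are transcription factors of the granule lineage, Unc5c is a netrin receptor of granule cells, and St18 is a zinc finger transcription factor of newly born neurons.

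Cntn2 itself is on mouse chromosome 1, on the minus strand. Its start region is shown because it is the gene that picks these nuclei, beside those of Epha3 and Tox3, which were higher in the cKO-labelled library, and Sorcs1, which was lower. Each stretch runs from 250 bases before to 50 bases after the transcript start (RefSeq, GRCm38.p6, 5′ to 3′ on the strand of the gene). Capitals mark CAGCTG and CAGATG, E-box letters of the kind bound by bHLH factors such as Neurod1 and Atoh1, searched on both strands. CAGCTG reads the same on both strands, and the motifs do not overlap.
Cntn2 (chr1:132542891-132543190): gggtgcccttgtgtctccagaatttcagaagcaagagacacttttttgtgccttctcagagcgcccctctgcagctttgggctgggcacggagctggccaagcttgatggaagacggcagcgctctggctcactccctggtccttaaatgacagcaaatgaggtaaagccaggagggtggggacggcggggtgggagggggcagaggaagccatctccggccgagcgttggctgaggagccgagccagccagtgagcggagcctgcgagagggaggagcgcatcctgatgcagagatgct
Epha3 (chr16:63864126-63864425): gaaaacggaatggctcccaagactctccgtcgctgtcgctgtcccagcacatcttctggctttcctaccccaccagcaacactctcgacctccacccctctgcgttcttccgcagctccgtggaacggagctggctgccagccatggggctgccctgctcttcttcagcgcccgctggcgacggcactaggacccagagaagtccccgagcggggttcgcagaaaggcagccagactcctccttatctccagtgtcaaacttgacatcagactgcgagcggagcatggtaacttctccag
Tox3 (chr8:90348203-90348502): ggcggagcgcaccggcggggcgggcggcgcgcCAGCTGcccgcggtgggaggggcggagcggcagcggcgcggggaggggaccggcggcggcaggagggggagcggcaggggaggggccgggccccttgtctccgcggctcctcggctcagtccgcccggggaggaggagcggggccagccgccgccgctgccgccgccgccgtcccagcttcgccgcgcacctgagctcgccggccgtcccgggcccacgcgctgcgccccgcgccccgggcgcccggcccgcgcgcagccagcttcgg
Sorcs1 (chr19:50678597-50678896): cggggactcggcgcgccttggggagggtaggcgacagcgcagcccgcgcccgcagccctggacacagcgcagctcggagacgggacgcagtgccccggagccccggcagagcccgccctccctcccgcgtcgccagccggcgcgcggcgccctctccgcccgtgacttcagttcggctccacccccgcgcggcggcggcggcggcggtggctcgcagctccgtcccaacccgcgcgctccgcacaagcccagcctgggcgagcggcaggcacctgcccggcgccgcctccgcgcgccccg
Of these stretches that of Tox3 holds 1 match, a CAGCTG, and those of Cntn2, Epha3 and Sorcs1 hold none. Over all 32851 RefSeq start regions of this length, 16.3% hold CAGCTG and 17.2% hold CAGATG. Among start regions of the genes that could be compared in Cntn2-high nuclei the shares were 15.3% and 11.1%. Among those of genes at least 1.5-fold higher in the cKO-labelled library they were 13.9% and 11.7%, and among those at least 1.5-fold lower 17.5% and 13.1%. A match is a description of letters and not a binding site.

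The libraries held 22325208 UMIs over 4857 barcodes (control) and 33726533 UMIs over 6946 barcodes (cKO), and 3816 and 6217 nuclei passed the filters on genes and mitochondrial share. Only 9 barcodes occurred in both libraries, and 0 of them were Cntn2-high nuclei. The Cntn2-high nuclei held a median of 4297 UMIs and 2135 genes in control and of 3567 UMIs and 1937 genes in the cKO-labelled library. Summed, they gave 766810 and 751243 UMIs, and levels are given as CPM, the UMIs of a gene per 1000000 UMIs of the same nuclei. In the targeted gene, Tox3, the Cntn2-high nuclei of the cKO-labelled library held more UMIs than control and not fewer, with 137 UMIs in 72 nuclei against 53 UMIs in 26 nuclei. Counts per gene do not show whether the deleted segment is present, so Tox3 UMIs do not check the genotype, and the group is called the cKO-labelled library.

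The genes the rule read describe the chosen nuclei. Of the 147 control nuclei 91 held exactly 2 Cntn2 UMIs and 1 nucleus reached 9. Of the 175 of the cKO-labelled library 97 held exactly 2 and 1 nucleus reached 6. Just outside the threshold lay 277 control nuclei and 267 of the cKO-labelled library that met every other condition with exactly 1 Cntn2 UMI. Cntn2 stood at 516 CPM in control and 628 CPM in the cKO-labelled library. Pax6 stood at 674 and 698 CPM and was seen in 145 of 147 and 169 of 175 nuclei. Neurod1 was sparser, at 124 and 117 CPM, and was seen in 60 and 65 nuclei.

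St18 and Unc5c, which the rule did not read, also stood high in these nuclei. St18 was at 573 CPM (520–629) in control and 497 CPM (447–550) in the cKO-labelled library. In the non-dividing nuclei of the same gate with 0 or 1 Cntn2 UMI it was at 213 and 187 CPM, and in dividing nuclei at 313 and 185 CPM. Unc5c was at 6094 and 6009 CPM, against 4301 and 4227 CPM in the non-dividing neighbours. In nuclei with no UMI of Neurod1, Pax6 or Cntn2 it was at 4796 and 4578 CPM, so Unc5c was not limited to the granule lineage. St18 followed the Cntn2 count of a nucleus in both libraries. In control it stood at 188 CPM with 0 Cntn2 UMIs, 307 CPM with 1, 479 CPM with 2 and 726 CPM with 3 or more. In the cKO-labelled library the same classes gave 169, 285, 489 and 506 CPM. These levels are a description, since the classes were set by Cntn2.

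Vascular markers were at or near 0 in Cntn2-high nuclei, while markers of some other cell types were not. All 10 vascular markers together gave 14 UMIs in control and 8 in the cKO-labelled library, with Cldn5, Rgs5, Kcnj8 and Lum at 0 in both. Microglia markers came to 175 and 190 CPM over the whole list, against 8770 and 9569 CPM in nuclei that carried at least 5 of the 9 microglia markers and at least 10 UMIs of them. Gfap, Tbr1, Lhx2 and Ptf1a were at 0 in both libraries. The astroglial list of 10 genes summed to 566 CPM in control and 760 CPM in the cKO-labelled library (ratio 1.34, 1.18–1.52), against 543 and 565 CPM in the microglia-marked nuclei (ratio 1.04). The Purkinje list summed to 4241 and 4582 CPM, against 3080 and 4054 CPM in the microglia-marked nuclei. Microglia should lack both lists, and whether the level found in them came from free RNA or from mixed nuclei was not tested. In the non-dividing neighbours both lists were higher in the cKO-labelled library, at 6626 and 8687 CPM for Purkinje genes and 1224 and 1889 CPM for astroglial genes. In dividing nuclei of the gate they stood at 5919 and 8923 CPM (ratio 1.51) and at 1507 and 3050 CPM (ratio 2.02). Markers of GABAergic interneurons and progenitors summed to 308 and 563 CPM in dividing nuclei (ratio 1.83). Whether the make-up of the dividing class differs between the libraries was not tested. The part of free RNA or mixed nuclei in the gene ratios below was not tested. Of 49 genes of G2 and M phase outside the rule 8 reached 50 UMIs, and the list summed to 935 and 883 CPM. In the non-dividing neighbours it summed to 999 and 813 CPM, and in dividing nuclei to 3395 and 3409 CPM. A UMI of Cenpf, Cenpe, Smc4, Nusap1 or Tpx2 was found in 35 of 147 control nuclei and 35 of 175 of the cKO-labelled library. Taken as a group, the nuclei thus carried Purkinje genes above the level of microglia-marked nuclei. Astroglial genes were near that level in control and above it in the cKO-labelled library. The G2 and M phase sum was near that of the non-dividing neighbours and far below that of dividing nuclei. A small number of nuclei with large counts is given next.

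A few of the chosen nuclei carried large counts of genes of other cells or later stages. With a cut chosen after seeing the values, 9 control nuclei and 6 of the cKO-labelled library held at least 30 UMIs of Meg3, a noncoding RNA abundant in maturing neurons. At least 10 UMIs of astroglial markers were found in 5 and 6 nuclei. A single control nucleus held 130 of 152 Itpr1 UMIs and 234 of 480 Rora UMIs, both known from Purkinje cells. A single control nucleus also held 49 of 57 UMIs of the transcription factor Meis2. Each gene ratio was therefore recomputed without the nucleus that held most of its UMIs in each library.

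Within the granule lineage, the share of Cntn2-high nuclei differed between the libraries by less than the counting error. The granule gate, which means the same conditions without those on Cntn2 and division, held 2219 control nuclei and 2451 of the cKO-labelled library. Cntn2-high nuclei made up 6.62% (5.63–7.74) of the gate in control and 7.14% (6.15–8.23) in the cKO-labelled library, a ratio of 1.08 (0.861–1.35). Of all nuclei that passed the filters they made up 3.85% (3.26–4.51) and 2.81% (2.42–3.26), a ratio of 0.731 (0.583–0.916). The gate as a whole took 58.1% of control nuclei and 39.4% of those in the cKO-labelled library, and how many nuclei of each cell type were captured cannot be told apart from how many there were. The other classes of the gate moved more. Dividing nuclei took 32.9% of the control gate and 18.6% of the gate in the cKO-labelled library. Non-dividing nuclei with 0 or 1 Cntn2 UMI took 60.4% and 74.3%. Since a count of 2 UMIs is easier to reach in a deep nucleus, every nucleus was also thinned to 1500 UMIs before the rule, which left out 8 and 12 shallower nuclei. Then 35 control nuclei (2.27% of the gate) and 41 of the cKO-labelled library (2.61%) were Cntn2-high, a ratio of 1.15 (0.714–1.86).

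**Figure D1:**
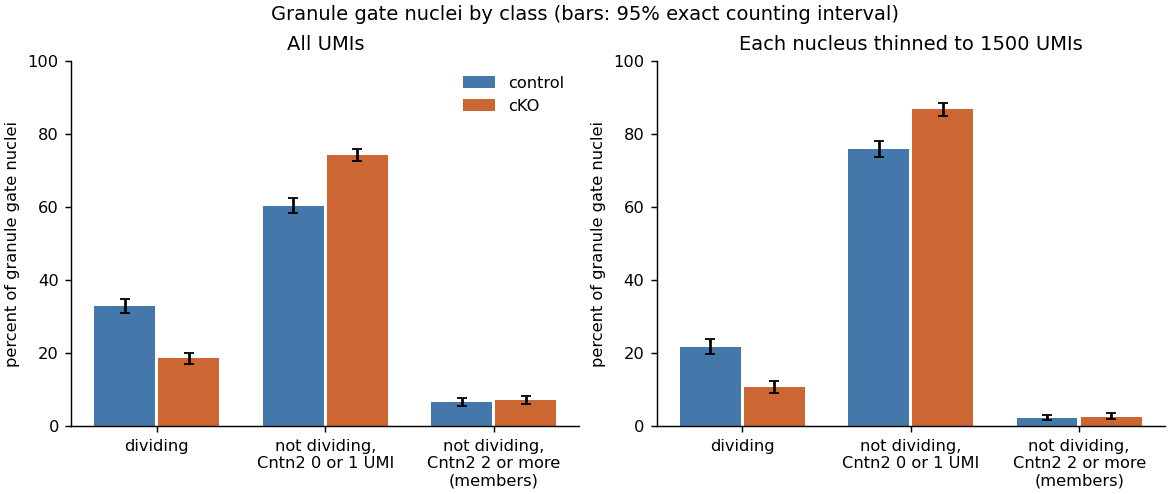
Share of granule gate nuclei (percent, y axis) in 3 classes for control and for the cKO-labelled library, with all UMIs (left) and after thinning to 1500 UMIs (right), bars showing 95% exact intervals. Members are the Cntn2-high nuclei, whose shares of 6.62% and 7.14% lie within each other's intervals, while the dividing class stands at 32.9% against 18.6%.

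Of 5343 genes that reached 50 UMIs when both libraries were added, 315 were at least 1.5-fold higher in the cKO-labelled library (5.9%) and 283 at least 1.5-fold lower (5.3%), and the median log2 ratio was 0.03. The interval of the ratio lay beyond 1 as well for 221 of the higher and 206 of the lower genes. The genes named next are the 15 in each direction whose interval kept farthest from 1.

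Among the higher genes, Epha3, a receptor for ephrins in axon guidance, stood at 248 CPM in control and 828 CPM in the cKO-labelled library, a ratio of 3.34 (2.84–3.95). It was seen in 71 of 147 control nuclei and 136 of 175 of the cKO-labelled library, so many nuclei carried the higher level. In nuclei marked by microglia genes Epha3 was at 51.7 and 52.1 CPM. Tgfb2, a ligand of the TGF-beta family, stood at 22.2 and 82.5 CPM, a ratio of 3.72 (2.15–6.79), and was seen in 13 and 42 nuclei. Among the non-dividing neighbours with 0 or 1 Cntn2 UMI the ratio was 1.30 for Epha3 and 1.21 for Tgfb2, and in dividing nuclei 2.03 and 1.36. The differences between these classes were not tested.

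Tox3, the targeted gene, was itself among the 15 higher genes, at 69.1 CPM (51.8–90.4) in control and 182 CPM (153–216) in the cKO-labelled library, a ratio of 2.64 (1.91–3.69). It is an HMG-box protein of the TOX family. Its ratio was 1.58 in dividing nuclei, 1.22 in non-dividing nuclei with fewer Cntn2 UMIs and 0.959 in nuclei with no UMI of Neurod1, Pax6 or Cntn2. In control its level was 85.7 CPM with 0 Cntn2 UMIs, 59.4 CPM with 1, 63.0 CPM with 2 and 79.1 CPM with 3 or more. In the cKO-labelled library the same classes stood at 98.02, 96.1, 183 and 182 CPM. The relatives of Tox3 were not higher. Tox stood at 90.0 and 59.9 CPM (ratio 0.666, 0.447–0.983) and Tox4 at 67.8 and 49.3 CPM (ratio 0.726, 0.463–1.13). Tox2 had 4 UMIs in control and 1 in the cKO-labelled library.

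Transcription and RNA factors among the higher genes were Onecut2, Foxp2 and Rbfox1. Onecut2, a homeobox factor of early neurons, went from 24.8 to 75.9 CPM (ratio 3.06). Foxp2, a forkhead factor known from Purkinje cells, went from 84.8 to 206 CPM (ratio 2.43). Its top nuclei held 33 and 38 UMIs, and without them the ratio was 3.73. Rbfox1, a regulator of splicing, went from 930 to 1866 CPM (ratio 2.01) and was seen in 112 and 160 nuclei.

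The other higher genes code for membrane, matrix and enzyme proteins or are noncoding. Slc4a4, a sodium bicarbonate cotransporter, had a ratio of 2.99, Sparcl1, a secreted matrix protein, 3.16, and Stxbp6, a syntaxin-binding protein, 2.67. Slc4a4 and Sparcl1 stood higher in non-dividing nuclei of the gate with 0 Cntn2 UMIs. There Slc4a4 was at 188 CPM in control and 364 CPM in the cKO-labelled library, and Sparcl1 at 193 and 336 CPM. With exactly 2 Cntn2 UMIs Slc4a4 was at 63.0 and 161 CPM, and Sparcl1 at 31.5 and 85.5 CPM. Galntl6, of a family of sugar transferases, had a ratio of 2.28 at 812 and 1854 CPM, and the teneurin Tenm1 one of 2.16. Galntl6 too stood lower the more Cntn2 UMIs a nucleus held. With 0, 1, 2 and 3 or more it was at 2475, 2033, 979 and 540 CPM in control. The same classes gave 3430, 2928, 2570 and 942 CPM in the cKO-labelled library. The unnamed transcript Gm17750 had a ratio of 3.54 and was seen in 26 and 88 nuclei. For Brinp3 the ratio fell from 2.45 to 1.74 without the top nuclei, and for the lipid carrier Apoe, which stands at 4057 and 5051 CPM in microglia-marked nuclei, from 2.20 to 1.52. The noncoding D130079A08Rik had no UMI in control and 64 in the cKO-labelled library, but 62 of these lay in 1 nucleus.

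Among the lower genes, Sorcs1, a sorting receptor of neurons, stood at 913 CPM in control and 246 CPM in the cKO-labelled library, a ratio of 0.270 (0.228–0.318). It was seen in 92 of 147 and 56 of 175 nuclei. Gm45352, which lies inside Sorcs1 on the other strand (chromosome 19, 50146938 to 50180652), had a ratio of 0.376. Sorcs3 was seen in 15 and 7 nuclei, with a ratio of 0.306. Grik3, a kainate receptor subunit, went from 183 to 47.9 CPM (ratio 0.262) and Gsg1l, an auxiliary subunit of AMPA receptors, from 66.5 to 17.3 CPM (ratio 0.260). Kctd8 and Kctd16, auxiliary subunits of GABA-B receptors, had ratios of 0.442 and 0.394. The ratios of Kctd8 and Kctd16 were 0.528 and 0.520 in non-dividing neighbours with fewer Cntn2 UMIs, and both were below 1 in dividing nuclei, at 0.311 for Kctd8.

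Dach2, a transcription cofactor, had the lowest ratio of the named genes. It stood at 378 CPM in control and 91.8 CPM in the cKO-labelled library (ratio 0.243, 0.184–0.317) and was seen in 73 and 33 nuclei. In control it stood at 416, 453, 410 and 327 CPM in nuclei with 0, 1, 2 and 3 or more UMIs. In the cKO-labelled library it stood lower the more Cntn2 a nucleus held, at 234, 192, 128 and 45.4 CPM. Sorcs1 gave 884, 978, 914 and 911 CPM over these classes in control and 627, 573, 256 and 233 CPM in the cKO-labelled library. Dach2 is on the X chromosome, and the pools may differ in sex: 65 of 147 control nuclei but 52 of 175 of the cKO-labelled library held a Y-linked UMI. Among nuclei with an Xist UMI its ratio was 0.161, and among those without one that held a Y-linked UMI it was 0.567. For Sorcs1 these ratios were 0.268 and 0.239. The part of sex in the other ratios was not tested beyond such splits.

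Efna5, an ephrin ligand that binds Eph receptors of the A class such as Epha3, stood at 750 CPM in control and 317 CPM in the cKO-labelled library, a ratio of 0.422 (0.362–0.492). Its ratio was 0.701 in non-dividing neighbours and 0.634 in dividing nuclei. The remaining lower genes were Dlgap2, a postsynaptic scaffold (ratio 0.278), Nell1, a secreted protein (0.423), Nkain2 (0.453), the RNA-binding protein Ralyl (0.517), the teneurin Tenm4 (0.398) and the transcript Gm38505 (0.255). For Tenm4 the ratio was 0.586 without the top nuclei, and Gm38505 was seen in 5 and 4 nuclei only, with 28 of 40 control UMIs in 1 of them.

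**Figure D2:**
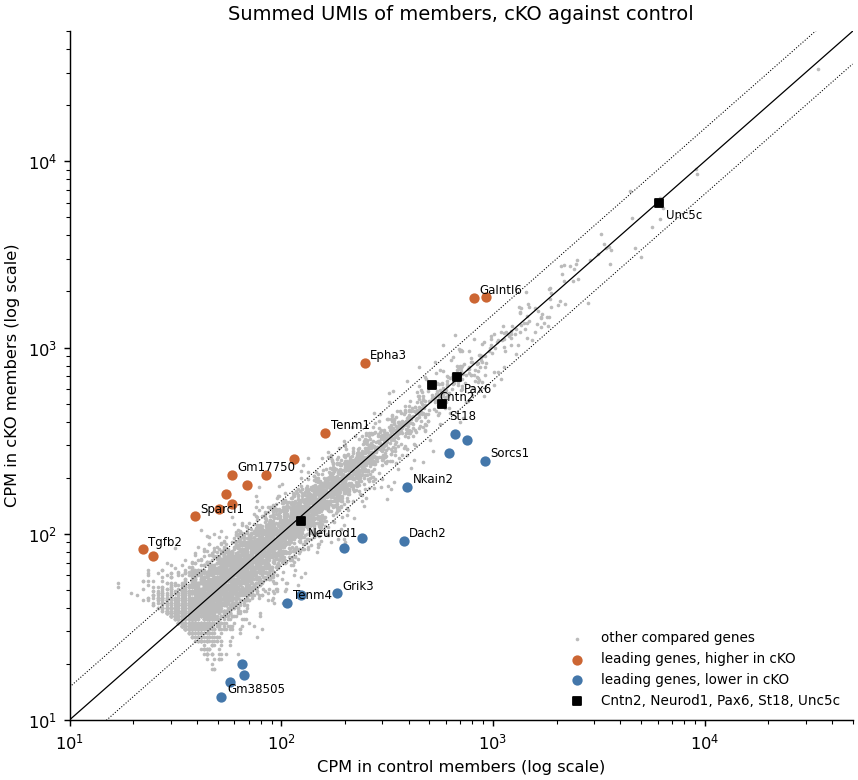
Level of each compared gene in Cntn2-high nuclei (members), control on the x axis and the cKO-labelled library on the y axis, in CPM on log scales, with dotted lines at 1.5-fold. D130079A08Rik, with 0 UMIs in control, lies outside the axes. Epha3 (248 and 828 CPM) and Galntl6 (812 and 1854 CPM) stand above the lines, Sorcs1 (913 and 246 CPM) and Dach2 (378 and 91.8 CPM) below, and the 5 marker genes lie between the lines.

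**Figure D3:**
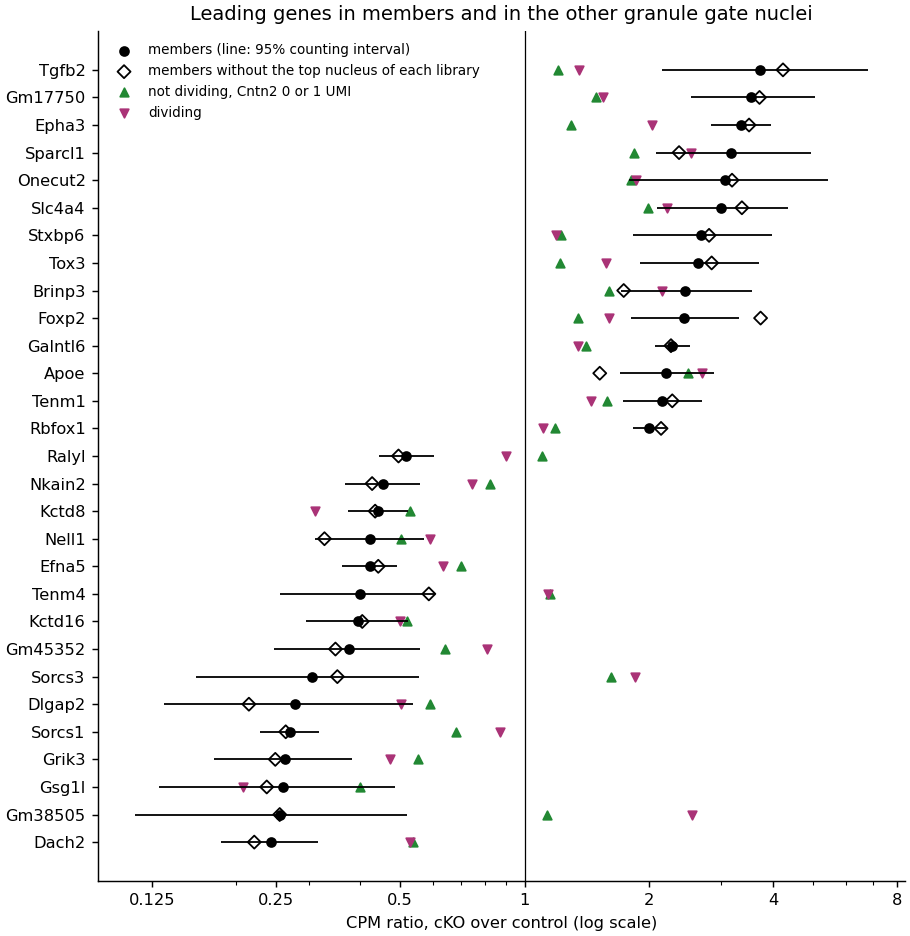
CPM ratio of the cKO-labelled library over control on a log scale for the leading genes in Cntn2-high nuclei (members, black, with 95% counting intervals), without the top nuclei (open diamonds), and in both other granule gate classes (triangles). D130079A08Rik has no ratio and is not drawn. For Sorcs3 the neighbours lie above 1 (1.62 and 1.86) and the Cntn2-high nuclei at 0.306, while for Kctd8 all classes lie below 1.

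Of the 36 genes of the guidance list 27 could be compared. Of these 4 were at least 1.5-fold higher and 4 lower, beside 5.9% and 5.3% of all compared genes. Intervals lay below 1 for 12 genes and above 1 for 4, the median log2 ratio was −0.22 against 0.03 for all genes, and the summed list had a ratio of 0.897 (0.877–0.918). Epha3 and Epha4 (ratio 2.41) were higher, and their relative Epha5 (0.524) and the ligand Efna5 (0.422) were lower. Epha4 was seen in 9 and 15 nuclei. Semaphorin Sema3a (1.71) and netrin receptor Unc5d (1.53) were higher, and the neogenin ligands Rgma (34 and 20 UMIs) and Rgmb (ratio 0.576) were lower. When nuclei were thinned before the rule the median of the list was 0.012.

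All 32 adhesion genes could be compared. Among them 2 were higher (Tenm1 at 2.16 and Ncam2 at 1.56) and 4 lower, beside 5.9% and 5.3% of all compared genes, and the median was 0.04. The lower ones were Tenm4, the contactins Cntn3 (0.397) and Cntn6 (0.454), relatives of Cntn2, and the protocadherin Pcdh15 (0.604). Of 25 cytoskeleton and polarity genes none passed 1.5-fold in either direction, and their median was −0.05. Map2, a microtubule protein of dendrites, had a ratio of 0.847 (0.769–0.932), and Tubb3, the neuronal tubulin, 0.787 (0.624–0.991).

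Most transcription factors of the lineage stood near equal. Of 25 compared, 2 were higher and 3 lower, beside 5.9% and 5.3% of all compared genes, with a median of −0.02. Nfix, of the nuclear factor I family, had a ratio of 1.55 (1.25–1.93), and the zinc finger repressor Zeb2 1.58 (1.29–1.96). Zeb2 is also a microglial gene and stood at 2765 and 2676 CPM in microglia-marked nuclei. Myt1l, a factor that holds the neuronal state, had a ratio of 0.580 (0.503–0.667) and was seen in 128 and 108 nuclei. Zic2, of the granule lineage, had a ratio of 0.622. Meis2 had one of 0.430 with all nuclei and 2.04 without the top nuclei.

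The proneural factor Atoh1, which marks granule precursors, had 1 UMI in control and 0 in the cKO-labelled library. Of 19 progenitor and Sonic hedgehog response genes 6 reached 50 UMIs, and 0 passed 1.5-fold in either direction. Their median was 0.01, and the list summed to 622 and 648 CPM (ratio 1.04, 0.917–1.18). Ptch1, the Sonic hedgehog receptor, stood at 170 and 225 CPM (ratio 1.33, 1.05–1.68), and Gli2, a transcription factor of the pathway, at 76.9 and 67.9 CPM (ratio 0.882, 0.594–1.31). Gli2 was seen in 19.7% (13.6–27.1) of control nuclei and 10.9% (6.66–16.4) of the cKO-labelled library. After thinning each nucleus to 1500 UMIs these shares were 10.9% (6.35–17.1) and 8.57% (4.88–13.7). Of 6 progenitor-enriched genes that the study followed in these same libraries, and which are therefore no independent evidence, 2 could be compared. Btbd11 had a ratio of 0.655 (0.436–0.975) and Rnf220 0.680 (0.434–1.06). Summed, the 6 genes stood at 271 CPM in control and 166 CPM in the cKO-labelled library, a ratio of 0.613 (0.487–0.769), and Barhl1, Sema7a, Ntn1 and Col18a1, each under 50 UMIs, were below 1 as well. Barhl1, a homeobox factor of granule precursors, had 33 and 14 UMIs (ratio 0.433, 0.214–0.832). In dividing nuclei the ratios of Btbd11 and Rnf220 were 0.187 and 0.313. Of the cell cycle genes that the rule did not read, 5 of S phase and 8 of G2 and M phase were compared and 0 passed 1.5-fold. Of 14 genes of cell cycle exit 3 were compared, with 1 higher and 0 lower, beside 5.9% and 5.3% of all compared genes. The median of these 3 was −0.09, and the whole list had a summed ratio of 0.915 (0.794–1.06). The higher one was Btg1, an antiproliferative gene, which went from 32.6 to 61.2 CPM (ratio 1.88, 1.13–3.19). For Rb1 and Rbl2 the lower log2 ratio was −0.39, and 1 of their intervals lay below 1.

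Genes of later granule neurons moved in both directions, with 1 of 12 higher and 2 lower, beside 5.9% and 5.3% of all compared genes. The median of the list was 0.10. Its sum was 6792 CPM in control and 5612 CPM in the cKO-labelled library (ratio 0.826, 0.793–0.861). Fat2, a protocadherin of granule cells, stood at 185 CPM in control and 93.2 CPM in the cKO-labelled library (ratio 0.503, 0.372–0.675). Kcnk9, a leak potassium channel, had a ratio of 0.612. Kcnd2, a voltage-gated potassium channel and by UMIs the strongest of the list, stood at 4683 and 3404 CPM (ratio 0.727, 0.691–0.765), against 1.00 in non-dividing neighbours with fewer Cntn2 UMIs. Grm4, a glutamate receptor of parallel fibre endings, was seen in 12 and 19 nuclei, with a ratio of 2.45 (1.31–4.82). Lingo2 had a ratio of 1.27 (1.07–1.52) among nuclei with an Xist UMI. Among those with a Y-linked but no Xist UMI its ratio was 1.41 (1.06–1.87). Over all settings the ratio of Lingo2 lay between 0.788 and 1.58.

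Of 26 synaptic genes 2 were higher and 2 lower, beside 5.9% and 5.3% of all compared genes, with a median of 0.00. The adhesion partners Nlgn1, a neuroligin, and Nrxn3, a neurexin, had ratios of 1.75 and 1.56. Nrxn3 stood at 4430 and 6926 CPM and was seen in 139 and 174 nuclei. Cadps2, which acts in the release of neurotrophin vesicles from granule cells, stood at 2823 and 1734 CPM (ratio 0.614, 0.573–0.658). Slc17a6, the vesicular glutamate transporter of young granule neurons, stood at 172 and 90.5 CPM (ratio 0.526, 0.387–0.710). Of 29 receptor and channel genes 2 were higher and 1 was lower, beside 5.9% and 5.3% of all compared genes. The median of the list was 0.12. The higher ones were Gabrb1, a GABA-A subunit (1.56), and Gria3, an AMPA subunit (1.52), and the lower one was Gria1, another AMPA subunit (0.607).

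**Figure D4:**
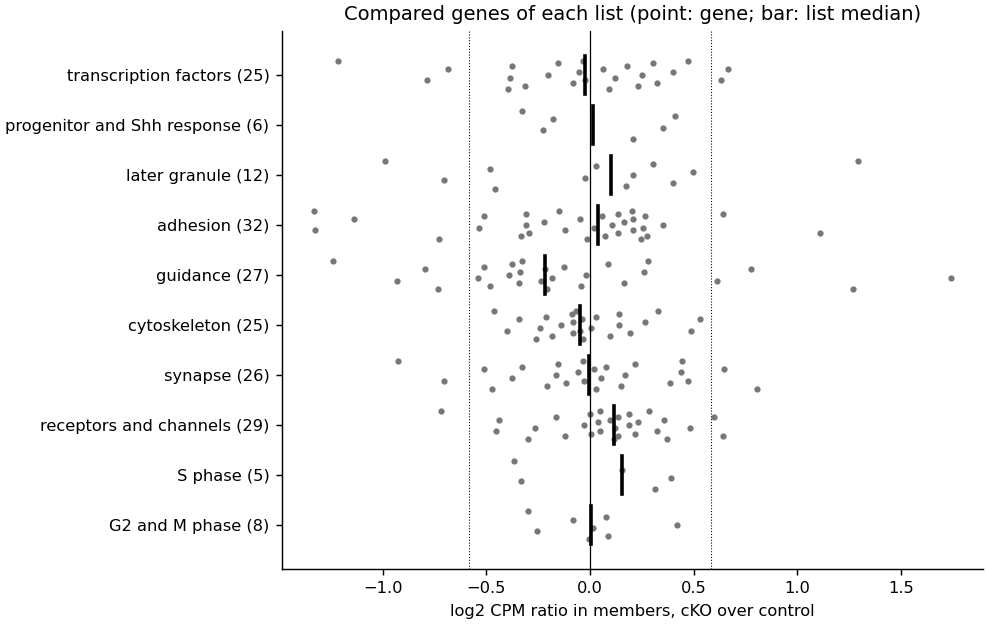
Log2 CPM ratio of the cKO-labelled library over control in Cntn2-high nuclei (members) for each compared gene of 10 lists, with the number compared in parentheses, list medians as bars and dotted lines at 1.5-fold. Medians lie between −0.22 for guidance and 0.15 for S phase, and no gene of the progenitor, cytoskeleton, S phase or G2 and M phase lists passes the dotted lines.

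The Cntn2-high nuclei also differed among themselves within each library. The nuclei were ranked by Cntn2 CPM and split in the middle, into 73 and 74 nuclei in control and 87 and 88 in the cKO-labelled library. Of 1356 genes with at least 100 UMIs in each library, 975 had the same direction in both libraries. In the part with more Cntn2 CPM, called more Cntn2 below, 97 genes were at least 1.5-fold lower in both libraries. In that part 22 genes were at least 1.5-fold higher in both, while 3 were past that fold in opposite directions. Without the nuclei rich in Meg3 or astroglial UMIs, the 97 lower genes became 49, and without nuclei over 10000 UMIs 48. The part with more Cntn2 was shallower, with a median of 3396 against 4891 UMIs in control and 3022 against 4470 UMIs in the cKO-labelled library. This follows in part from the ranking, since 91 of 147 control nuclei and 97 of 175 of the cKO-labelled library held exactly 2 Cntn2 UMIs. Among those nuclei the order by Cntn2 CPM was the order by depth, with the shallowest nuclei highest. The split is therefore in large part one by depth, and the share of depth in the gene differences was not tested.

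The genes chosen as lowest where Cntn2 CPM was highest follow. Syt4, a synaptotagmin, stood at 213 CPM in the part with less Cntn2 and 24.6 CPM in the part with more in control, and at 214 and 20.5 CPM in the cKO-labelled library. Meg3 stood at 2412 and 605 CPM in control and at 1886 and 505 CPM in the cKO-labelled library. Snhg11, another neuronal noncoding RNA, stood at 412 and 66.8 CPM and at 432 and 71.7 CPM. Dab1, which carries the reelin signal, had ratios of 0.130 and 0.211, and the adhesion molecule Chl1 0.182 and 0.208. Lingo2 had ratios of 0.263 and 0.266, the large membrane proteins Csmd1 and Csmd3 0.107 and 0.192 in control and 0.221 and 0.236 in the cKO-labelled library, and the potassium channel subunit Dpp10 0.202 and 0.0716. The transcript 4930555F03Rik had ratios of 0.0776 and 0.177.

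Highest where Cntn2 CPM was highest were Igfbpl1 and F13a1. Igfbpl1, which is known from newly born neurons, stood at 203 and 405 CPM in control and 225 and 546 CPM in the cKO-labelled library. F13a1 stood at 199 and 419 CPM and at 218 and 396 CPM. Syt11, a synaptotagmin of membrane traffic, had ratios of 1.76 and 1.65, Zeb2 1.61 and 1.65, Ubl3 1.76 and 1.83 and the chromatin protein Cbx1 1.58 and 1.59. The transcripts Gm48742, Gm43948, Gm26953 and C530008M17Rik had ratios of 1.60 to 2.34 in either library. Another split of the same nuclei, chosen after seeing the data, set those with exactly 2 Cntn2 UMIs against those with 3 or more. In it Zeb2 and Cbx1 no longer lay above 1 in both libraries. The other 8 higher genes did, but some of their intervals reached 1. In the cKO-labelled library these were Gm48742 (1.04, 0.746–1.44), Gm26953 (1.37, 0.929–2.02) and Syt11 (1.23, 0.943–1.61). In control it was Ubl3 (1.16, 0.781–1.70). The 10 lower genes stayed below 1 in both libraries in that split, but nearer to 1. In control the ratio was 0.841 (0.627–1.12) for Snhg11, 0.844 (0.668–1.06) for Lingo2 and 0.696 (0.461–1.03) for Chl1. In the cKO-labelled library the ratios of these genes were 0.492, 0.393 and 0.266.

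**Figure D5:**
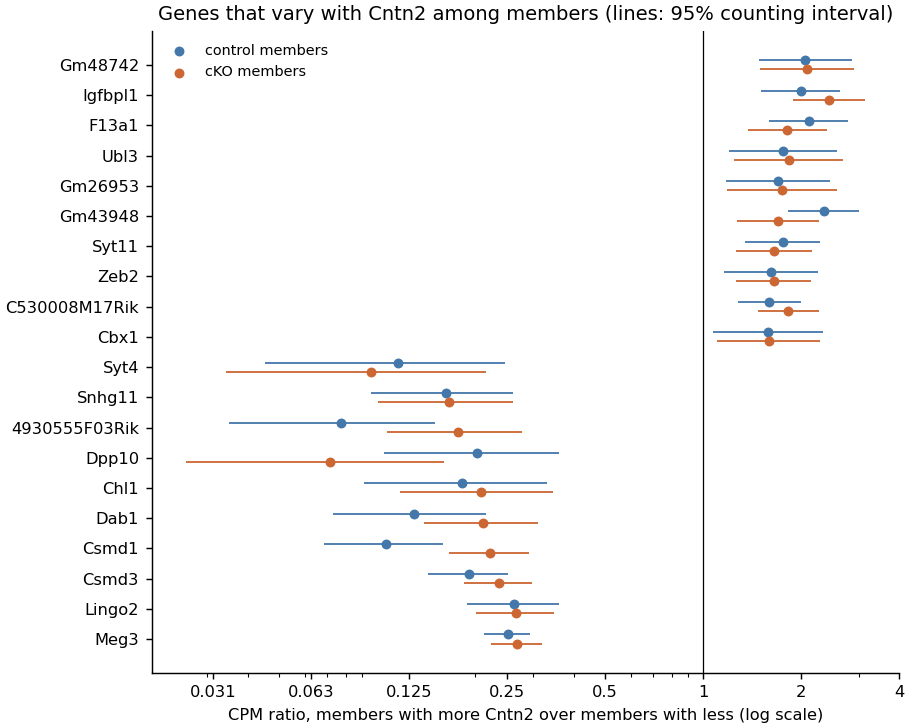
CPM ratio of Cntn2-high nuclei with more Cntn2 CPM over those with less, on a log scale, for the 10 genes in each direction with the largest difference common to both libraries, as points with 95% counting intervals. The genes were chosen for lying on the same side of 1 in both libraries, and the ratios in control and the cKO-labelled library were 0.115 and 0.0957 for Syt4 and 1.99 and 2.43 for Igfbpl1.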

How the data were processed

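Single-nucleus RNA-seq of postnatal day 1 cerebellum gave 1 library per group, each from 12 pooled cerebella. Per the submitters' processing notes and the study's methods, the authors counted reads with Cell Ranger 7.0.1 on mm10 (GRCm38), and the deposited values are raw UMI counts per gene and nucleus. Whether intronic reads were counted is not given in the sources used here, and no correction for free RNA was applied. Coordinates are from GENCODE vM21 on GRCm38, to which 32158 of 32285 genes matched by identifier.

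UMIs were summed over the chosen nuclei of each library and compared as CPM in Python 3.11.15 with scipy 1.17.1. Intervals were Clopper-Pearson for shares, Poisson for UMI sums and conditional binomial for ratios, and they cover counting error only. Called means at least 1.5-fold, among genes with at least 50 UMIs, with 0 UMIs taken as 3. Nuclei are not replicates, so no test was run. Doublets stayed in, and an alternative removed the top Scrublet scores (scanpy 1.11.5). The comparison script was tested on simulated data. The groups were taken from the labels.

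Named genes were the markers and TOX family, the 15 in each direction whose interval bound lay farthest from 1 outside the Y chromosome, Xist, mitochondrial genes and the genes of the rule, up to 4 per list by the same order, and 10 per direction for variation among nuclei. Other called members of a list were named after their values were seen. The nuclei, lists and alternatives were chosen with earlier results of these data known.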

Additional observations from a re-analysis of the deposited data

Results flagged for a closer look

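For 4 of the 15 leading lower genes, the ratio of the cKO-labelled library over control lay below 1 in Cntn2-high nuclei and above 1 in another class of granule gate nuclei. None of these differences was tested, since each class has 1 library per group. Sorcs3 had a ratio of 0.306 in Cntn2-high nuclei, 1.86 in dividing nuclei and 1.62 in non-dividing nuclei with 0 or 1 Cntn2 UMI. Its Cntn2-high value rests on 15 control nuclei and 7 of the cKO-labelled library with a UMI. Gm38505 had a ratio of 0.255, against 2.54 in dividing nuclei and 1.13 in the non-dividing neighbours, and 28 of its 40 control UMIs lay in 1 Cntn2-high nucleus. Ralyl, at 661 and 342 CPM, had a ratio of 0.517 in Cntn2-high nuclei and 1.10 in the non-dividing neighbours. Tenm4 had a ratio of 0.398 against 1.15, and 0.586 without the top nuclei.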

How the results depend on the processing

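No paired analysis was possible because each group is 1 library, and no library could be left out. Of 199 values recomputed for the shares, counts, list medians and the variation among nuclei, 171 stayed within 1.5 times the reported count or within the reported counting interval. The others follow, and their causes were not tested except where fewer genes or nuclei entered by construction. The higher and lower counts (315 and 283) were 891 and 812 from 20 UMIs, 36 and 48 from 200 UMIs, 2147 and 2083 from 1 UMI, 53 and 57 at 2-fold, 37 and 28 after thinning (35 and 41 nuclei) and 138 and 140 among nuclei with a Y-linked but no Xist UMI. With at least 3 Cntn2 UMIs, median log2 ratios were −0.34 (later granule), −0.065 (guidance) and −0.39 (G2/M). After thinning they were −0.41 for the later granule list and 0.012, so on the other side of 0, for the guidance list. The guidance median was −0.11 among nuclei with an Xist UMI. The adhesion median was −0.11 without any Eomes, Lmx1a, Gad1 or Gad2 UMI and 0.20 without nuclei rich in Meg3 or astroglial UMIs. From 200 UMIs the progenitor and G2/M medians were 0.41 and −0.30. The 97 genes lower with more Cntn2 in both libraries became 21 with at least 3 Cntn2 UMIs, 63 and 23 among nuclei with Xist and with Y-linked UMIs, 48 without nuclei over 10000 UMIs, 49 without those rich in Meg3 or astroglial UMIs and 37 for 2 against 3 or more Cntn2 UMIs.

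Of 29 leading genes with a ratio, 24 stayed on the same side of 1 under every alternative that gave one. Of 93 named genes with a ratio, 32 whose ratio was under 1.5-fold or had an interval reaching 1 crossed 1 under some alternative. Among genes at least 1.5-fold apart with an interval off 1, 9 crossed it. They were Sorcs3 (1.17) and Meis2 (1.76) with at least 3 Cntn2 UMIs, Onecut2 (0.427), Tenm1 (0.683) and Gm38505 (2.56) after thinning, Brinp3 (0.933) with 5 more dividing genes at 0, and Meis2 (2.95) among nuclei with an Xist UMI. Among nuclei with a Y-linked but no Xist UMI they were those of Brinp3 (0.653), Gm38505 (11.3), Gabrb1 (0.834), Itpr1 (2.92) and Ebf2 (0.782). Meis2 and Itpr1 were at 2.33 and 1.94 without nuclei over 10000 UMIs, at 2.39 and 1.71 without those rich in Meg3 or astroglial UMIs, where Gm38505 was at 1.44, and at 2.04 and 1.48 without the top nuclei. Alternatives on deep nuclei, on Meg3 and astroglial UMIs, on top nuclei and for the variation among nuclei were chosen after seeing the data. Removing the top Scrublet scores took 4 control nuclei and 8 of the cKO-labelled library.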
